A study of Mus musculus with 12 samples.

Results

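The tumour necrosis factor (TNF) superfamily was described in macrophages sorted from mouse gliomas by whether they had taken up nanoparticles. Its members were the rows of the deposited count table whose symbol is Tnf, or Tnfsf or Tnfrsf followed by a number. This gave 33 of 54532 genes: 12 ligand genes, 20 receptor genes and Tnfsf13os, an antisense RNA gene that the symbol rule takes in. Of these, 25 passed the filter on low counts (8 ligand genes, 16 receptor genes and Tnfsf13os) and 8 did not.

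All 6 mice carried the genotype labelled Ntv-a_Ink4a/Arf_KO, bore gliomas and received rhodamine-labelled perfluoro-crown-ether nanoparticles (label Rhodamine_PFCE_NP) into a vein. In Ntv-a mice the nestin promoter drives the receptor for avian retroviral vectors in neural progenitor cells, and Ink4a/Arf is a tumour suppressor locus. Tumours were taken 24 hours later, and each mouse gave 1 rhodamine-negative and 1 rhodamine-positive sort of CD45-positive, CD11b-positive, Ly6C-negative cells, with more than 2000 cells per sort. The 2 groups of 6 libraries therefore share genotype, tumour and injection, and differ in the rhodamine signal of the sorted cells; they are called negative and positive sorts below. The labels give mice 1 to 4 as male and the other two as female, and ages are not given in the sources used here. No uninjected mice are among the samples.

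Ligands of the superfamily are mostly trimeric membrane proteins, some of which are shed, and their receptors signal through TRAF adaptors to NF-kB and MAP kinases or, where the receptor has a death domain, also to cell death. In macrophages, TNF is an early product of NF-kB activation that acts back on its own receptors. Several other ligands, among them the products of Tnfsf9, Tnfsf8 and Tnfsf4, are costimulators that antigen-presenting cells offer to lymphocytes.

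The upstream sequences of 3 members are shown as examples: Tnf itself, which did not pass the test, Tnfrsf21, the receptor gene that rose, and Tnfrsf13c, a receptor gene that fell. Tnfrsf13c passed the filter through negative sorts, and its fall rests on few counts. Only windows without annotated untranslated bases were printed in full, which left out that of Tnfrsf18. Each sequence is the 250 bases before the RefSeq start on GRCm38.p6, the mm10 build, written 5′ to 3′ on the gene's strand. Capitals mark matches on either strand to TATAAA, the core of a TATA box, or to GGGCGG, a GC box.
Tnf: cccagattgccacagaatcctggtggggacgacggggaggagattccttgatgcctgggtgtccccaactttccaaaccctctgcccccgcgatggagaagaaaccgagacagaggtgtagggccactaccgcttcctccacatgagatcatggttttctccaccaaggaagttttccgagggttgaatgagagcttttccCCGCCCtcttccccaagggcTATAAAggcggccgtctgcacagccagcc
Tnfrsf21: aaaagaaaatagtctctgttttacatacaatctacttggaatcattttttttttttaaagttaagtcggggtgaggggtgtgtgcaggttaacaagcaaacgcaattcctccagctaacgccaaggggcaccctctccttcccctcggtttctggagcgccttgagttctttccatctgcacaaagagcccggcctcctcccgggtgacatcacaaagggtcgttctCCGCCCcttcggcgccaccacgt
Tnfrsf13c: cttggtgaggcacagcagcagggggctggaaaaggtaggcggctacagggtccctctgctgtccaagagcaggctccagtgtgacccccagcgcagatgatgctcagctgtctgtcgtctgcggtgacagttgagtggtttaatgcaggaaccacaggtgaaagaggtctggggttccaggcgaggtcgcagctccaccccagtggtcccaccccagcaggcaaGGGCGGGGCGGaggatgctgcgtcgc
The Tnf window lies at chr17:35202008-35202257 on the minus strand, the Tnfrsf21 window at chr17:43016305-43016554 on the plus strand and the Tnfrsf13c window at chr15:82224381-82224630 on the minus strand. In Tnf the TATA box lay 29 to 24 bases before the start, and neither receptor window held one. The 2 GC boxes of Tnfrsf13c share 1 base.

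RefSeq upstream windows were at hand for 25 of the 33 members, some with more than one start. A strict match to the NF-kB consensus was found in 2 members, Tnfrsf8 and Tnfrsf9, and 3.9% of all 32851 windows of this length held one. Tnfrsf9 held 2 overlapping matches at an internal start of the gene. The 30 bases around them (chr4:150927947-150927976, plus strand) are shown with both matches in capitals.
Tnfrsf9: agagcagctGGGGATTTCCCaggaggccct
The AP-1 consensus TGANTCA was found in 5 members (6.75% of all windows), the TATA box in 5 (12.4%) and the GC box in 12 (32.7%). The counts are of members and the percentages of single windows. The 25 members had 29 windows, so counts and percentages are not directly comparable. These matches describe letters in a window and are not measured binding sites.

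Counts per library ran from 13073189 to 17379314, and the ranges of the 2 groups overlapped. Levels are given as CPM, the share of a library's counts that a gene takes, with TMM scaling, which assumes that most genes do not differ, and as CPM per kilobase of exon where genes are compared with each other. Fold changes are positive against negative within mice, from the quasi-likelihood test in edgeR, and p-values were adjusted by Benjamini-Hochberg over all 15014 genes tested. Markers of the labelled cell type were abundant in both groups: the summed CPM of 8 macrophage genes, such as Csf1r and C1qb, was 8045 to 18395 in negative and 20184 to 23530 in positive sorts, and 6 of the 8 rose. Of the microglia markers, Fcrls rose (log2 fold change 0.51, SE 0.15, edgeR adjusted p = 0.028), whereas P2ry12 (0.01, SE 0.17), Tmem119 (0.27, SE 0.14), Sall1 (0.07, SE 0.13), Gpr34 (0.25, SE 0.18) and Olfml3 (0.33, SE 0.13) did not pass. Scaled to library size alone, the median log2 fold change of all genes moved from -0.02 to -0.18, and the calls over all genes changed from 1955 higher and 1986 lower to 852 and 3142.

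Per kilobase, Tnf was the highest of the 33 members in both sorts, at 140 ± 52.7 CPM per kilobase in negative and 126 ± 42.7 in positive sorts (SD, n = 6). It was followed by its receptors Tnfrsf1b and Tnfrsf1a, at 69.3 ± 13.2 and 60.2 ± 6.11 CPM per kilobase in negative sorts. The intervals of mean ± 1 SD of these 2 overlapped. Tnfsf9 was next in negative sorts, at 46.5 ± 11.7, and then Tnfrsf21, at 39.3 ± 10.8, and their intervals also overlapped. In positive sorts Tnfrsf21 came after Tnfrsf1b and Tnfrsf1a at 51.6 ± 4.60. Tnfsf9 was at 15.03 ± 5.17 there, behind Tnfrsf13b and Tnfsf13os, and its interval overlapped that of Tnfsf13os. From Tnfrsf14 down to Tnfrsf23 in negative sorts, the intervals of genes next to each other in this order overlapped.

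**Figure D1:**
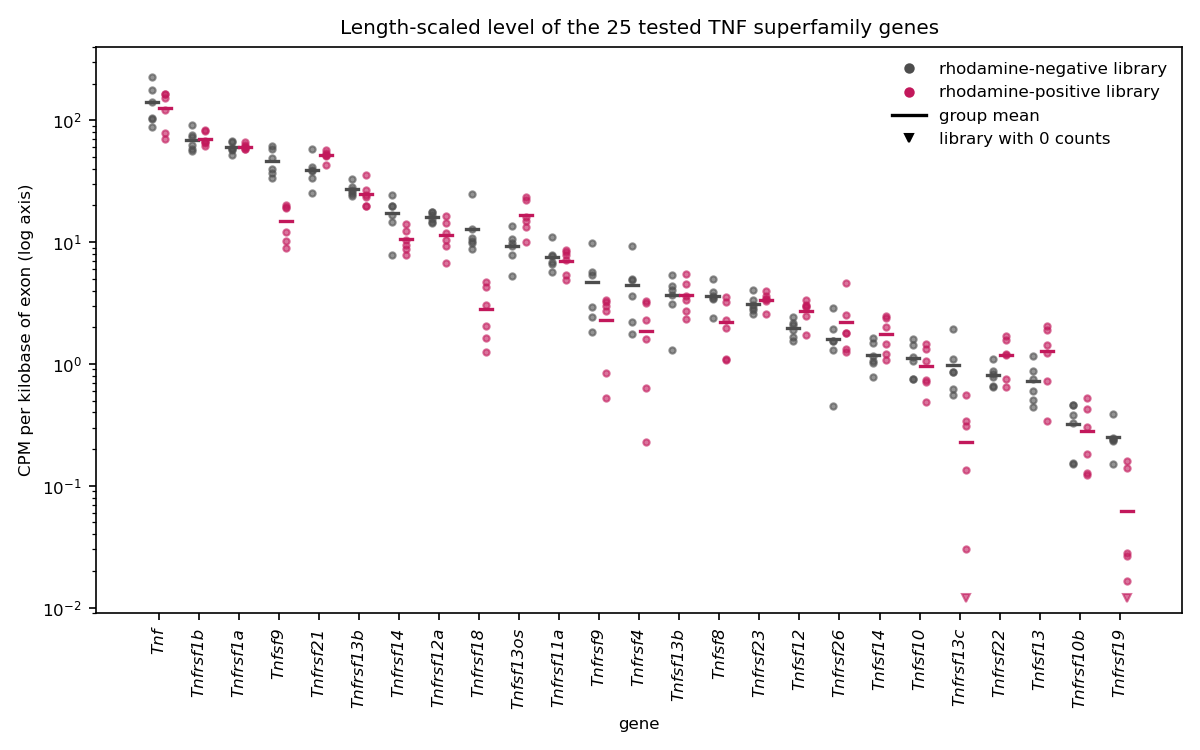
Level of the 25 tested members in CPM per kilobase of exon on a log axis, with a point for each library, a bar for each group mean and a triangle at the foot for a library with 0 counts. Tnf lies highest in both groups, and the bars of Tnfsf9 and Tnfrsf18 are farther apart than those of the genes beside them.

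Of the 25 tested members, 8 fell and 2 rose in positive sorts. Over all genes tested, 13.2% fell and 13.0% rose, 26.2% in all. Among the members 32.0% fell and 8.0% rose, and their median log2 fold change was -0.14 against -0.02 for all genes. Those that fell were Tnfsf9, Tnfsf8, Tnfrsf18, Tnfrsf4, Tnfrsf14, Tnfrsf12a, Tnfrsf13c and Tnfrsf19, and those that rose were Tnfrsf21 and Tnfsf13os. Tnfrsf13c and Tnfrsf19 passed the filter through negative sorts, with 1 positive library each above the minimum level, so the counts do not describe the whole family. Falls of at least 2-fold were seen in 5 members (5.47% of all genes) and rises of that size in 0 (0.626%). The groups did not overlap in 2 members, both lower, against 8.81% of all genes in either direction (4.67% lower and 4.14% higher). All 6 mice were lower for 6 members (14.0% of all genes) and higher for 2 (14.2%). With library size alone, 10 members were lower and 1 higher. Without the mouse as a block 5 were lower and 1 higher. In male mice alone 1 was higher and 5 were lower, among them Tnf, which did not pass in all mice. Tnfsf8, Tnfrsf14, Tnfrsf4 and Tnfrsf13c lost their call there. Calls over all genes dropped as well, to 1398 lower and 1270 higher without the block and to 1222 and 1005 in male mice alone. Leaving out mouse 1, 2 or 5 left 5 members lower, with 1572 to 1722 of all genes lower. Leaving out mouse 1, 3, 4 or 5 left 1 member higher, with 1257 to 1780 of all genes higher. In bulk RNA, fewer cells of a type and less transcript per cell cannot be told apart.

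**Figure D2:**
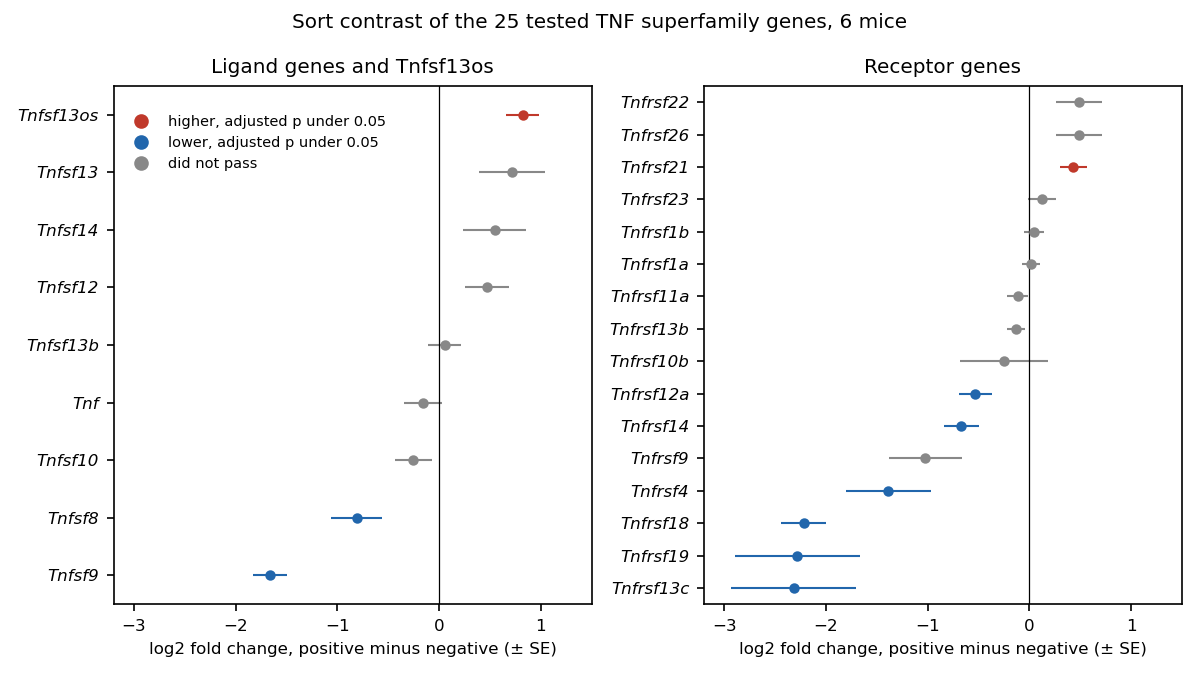
Log2 fold change, positive minus negative, with its SE, for each of the 25 tested members; blue is lower and red is higher at an adjusted p under 0.05, and grey did not pass. Of 16 receptor genes 6 are blue and 1 is red, and of 8 ligand genes 2 are blue and none is red.

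Tnf, the founding ligand of the family, did not pass the test. Its level was 145 to 369 CPM (median 203) in negative and 116 to 271 CPM (median 225) in positive sorts, and the groups overlapped. The log2 fold change was -0.16 (SE 0.19, edgeR adjusted p = 0.57). The 6 mice did not share a direction: the paired log2 differences were -0.86, -0.10, -0.57 and -0.56 in the male mice 1 to 4 and 0.90 and 0.26 in the female mice 5 and 6.

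Neither receptor gene of TNF passed the test. Tnfrsf1a, the broadly expressed receptor with a death domain, was at 133 to 175 CPM (median 153) in negative and 150 to 173 (median 156) in positive sorts. Its log2 fold change was 0.02 (SE 0.09, edgeR adjusted p = 0.89), and the sign turned to -0.14 with library size alone. Tnfrsf1b, the receptor without a death domain that is typical of leukocytes, was at 215 to 348 CPM (median 257) and 234 to 320 (median 256). Its log2 fold change was 0.04 (SE 0.10, edgeR adjusted p = 0.79), which was -0.12 with library size alone.

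The costimulatory ligand genes Tnfsf9 and Tnfsf8 fell. Tnfsf9 (chromosome 17, 57105325 to 57107757) encodes 4-1BB ligand, which antigen-presenting cells offer to T and NK cells, and it was at 43.3 to 80.1 CPM (median 57.0) in negative and 11.6 to 26.2 (median 20.1) in positive sorts. Every positive library lay below every negative one, which 4.67% of all genes tested also showed in this direction. It fell 3.16-fold, by 1.66 on the log2 scale (SE 0.17, edgeR adjusted p = 5.08e-05), in 6 of 6 mice. The call held under all 14 other settings tried, with log2 fold changes between -1.96 and -1.54. Of its 1290 exon bases, 192 are shared with Gm11110 on the other strand, which changed by -1.67 on the log2 scale. Without a stated strand setting, reads on the shared bases cannot be told apart.

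Tnfsf8, which encodes CD30 ligand, was at 9.03 to 18.8 CPM (median 13.5) in negative and 4.09 to 13.5 (median 8.08) in positive sorts. The groups overlapped, and the log2 difference within mice ran from -0.03 in mouse 3 to -1.83 in mouse 5. It fell 1.76-fold (log2 fold change -0.81, SE 0.25, edgeR adjusted p = 0.0342). The call was lost when mouse was dropped from the model (adjusted p = 0.0893), in male mice alone (0.244) and on leaving out mouse 2, 5 or 6 (0.088, 0.0855 and 0.108).

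The receptor of Tnfsf9 is encoded by Tnfrsf9 (4-1BB), best known from activated T cells. It was at 4.93 to 27.0 CPM (median 11.4) in negative and 1.43 to 9.15 (median 7.79) in positive sorts, lower in 5 of 6 mice. Its log2 fold change was -1.02 (SE 0.36), and edgeR's adjusted p = 0.055 did not pass. It passed with DESeq2 (adjusted p = 0.00541), limma-voom (0.0313), library size alone (0.0319), no filter (8.9e-06) and without mouse 3 or 4 (0.0321 and 0.0438). Tnfrsf8, the receptor of Tnfsf8, had 0 to 14 counts and was not tested.

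Among receptor genes, Tnfrsf18 fell most clearly. It encodes GITR, a costimulatory receptor known from regulatory T cells and NK cells. Its level was 13.4 to 37.7 CPM (median 16.0) in negative and 1.90 to 7.14 (median 3.90) in positive sorts. The groups did not overlap, and 6 of 6 mice were lower. It fell 4.66-fold, by 2.22 on the log2 scale (SE 0.22, edgeR adjusted p = 5.12e-05), and passed under all 14 other settings. The antisense gene Gm16008 shares 414 of the 1524 exon bases of Tnfrsf18 and changed by -2.48 on the log2 scale. Reads on the shared bases cannot be told apart here either.

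Tnfrsf4, which encodes OX40, lies beside Tnfrsf18 on chromosome 4 (156013843 to 156016612, with Tnfrsf18 at 156026164 to 156028895). It was at 2.39 to 12.8 CPM (median 5.81) in negative and 0.312 to 4.44 (median 2.65) in positive sorts. The groups overlapped, although each mouse was lower in its positive sort, with paired log2 differences from -0.13 in mouse 3 to -2.81 in mouse 2. It fell 2.61-fold (log2 fold change -1.39, SE 0.41, edgeR adjusted p = 0.0288). The call was lost without the block (adjusted p = 0.107), in male mice alone (0.114) and without mouse 1, 2 or 5 (0.0844, 0.0644 and 0.0819). The ligands of these receptors, Tnfsf18 and Tnfsf4, did not pass the filter.

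Lymphocyte and NK cell markers were read in the same libraries. Of 7 T cell markers, 3 were tested and none passed, with a sum of 2.53 to 5.49 CPM in negative and 3.87 to 5.30 in positive sorts. The T cell receptor complex genes Cd3e, Cd3d and Cd3g reached at most 0.59 CPM in any library. Of 5 NK cell markers, only Klrd1 was tested, and it fell; their sum was 40.2 to 87.0 CPM and 2.14 to 10.9 CPM, of which Klrd1 alone was 37.9 to 82.8 and 1.98 to 9.94 CPM. Ncr1 was at 0 in 4 of 6 negative and 6 of 6 positive sorts. All 8 dendritic cell markers tested fell, from a sum of 412 to 1485 CPM to one of 164 to 283 CPM. Clec9a, 1 of the 8, passed the filter through negative sorts, with 1 positive library above the minimum level. The part of these cell types in the lower levels of Tnfsf9, Tnfsf8, Tnfrsf18 and Tnfrsf4 was not tested.

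**Figure D3:**
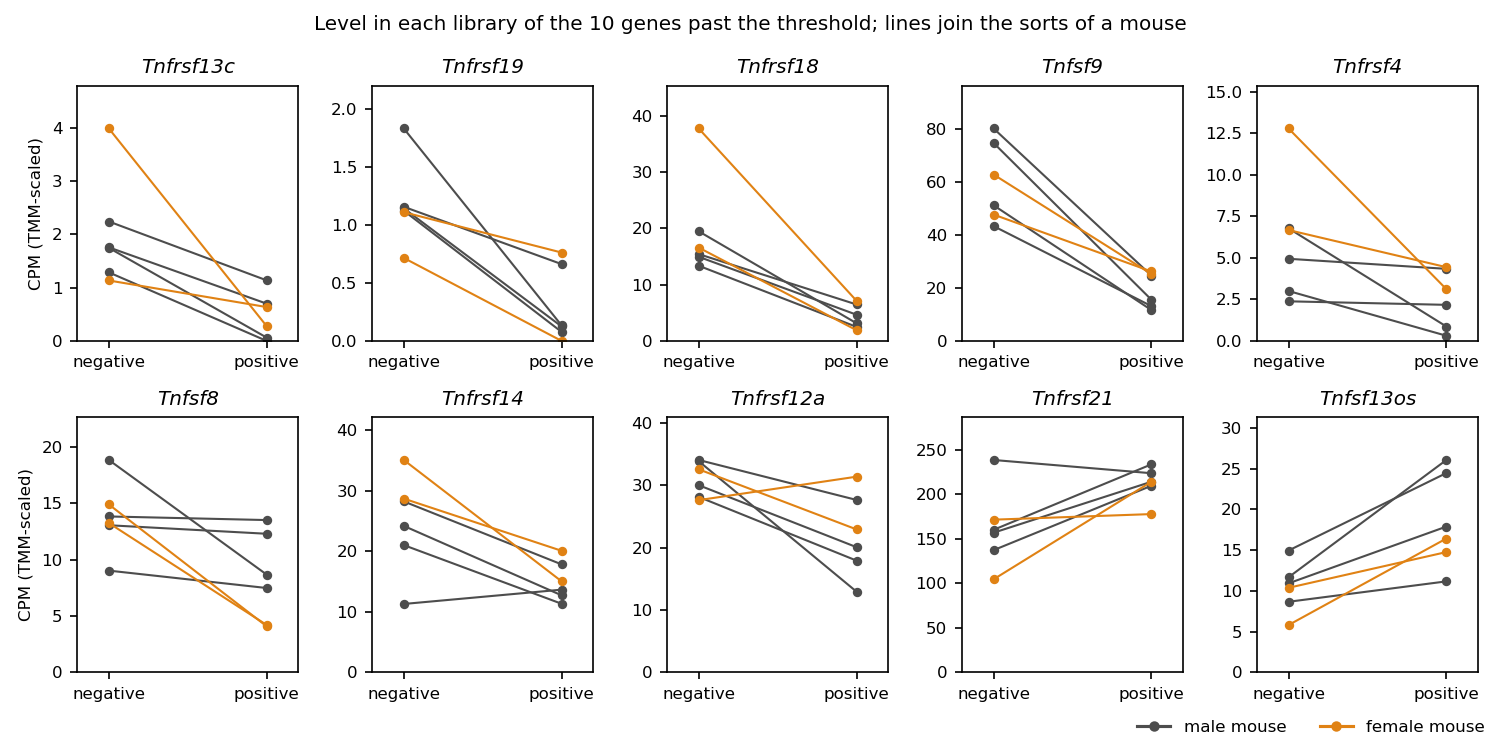
CPM of the 10 members past the threshold in each library, with a line joining the 2 sorts of a mouse, male mice in grey and female mice in orange; each axis starts at 0. For Tnfsf9 and Tnfrsf18 all lines fall and the groups do not overlap, whereas Tnfrsf12a, Tnfrsf14 and Tnfrsf21 each have 1 mouse that goes the other way.

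Tnfrsf14 encodes HVEM, the receptor of LIGHT and a partner of BTLA. It was at 11.3 to 35.1 CPM (median 26.2) in negative and 11.3 to 20.1 (median 14.3) in positive sorts, lower in each mouse but mouse 3. It fell 1.59-fold (log2 fold change -0.67, SE 0.17, edgeR adjusted p = 0.0141), and passed in 13 of 14 other settings, the exception being male mice alone (adjusted p = 0.0874). Tnfsf14, which encodes LIGHT, was at 1.44 to 3.04 CPM (median 2.06) and 1.99 to 4.54 (median 3.23). Its log2 fold change of 0.55 (SE 0.31, edgeR adjusted p = 0.215) did not pass.

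Tnfrsf12a encodes Fn14, the receptor of TWEAK, which is induced in injured tissue. Its level was 27.6 to 34.1 CPM (median 31.3) in negative and 13.0 to 31.4 (median 21.5) in positive sorts, with mouse 5 alone higher in its positive sort. It fell 1.45-fold (log2 fold change -0.53, SE 0.17, edgeR adjusted p = 0.0339). This call depended on single mice: it was lost without mouse 1, 2, 3, 4 or 6 (adjusted p = 0.0519, 0.0713, 0.0924, 0.071 and 0.0774) and without the block (0.0677). Tnfsf12, the gene of TWEAK, was higher in 6 of 6 mice, at 2.35 to 3.65 CPM (median 3.02) and 2.62 to 5.05 (median 4.45), but its log2 fold change of 0.47 (SE 0.21, edgeR adjusted p = 0.125) did not pass. Tnfsf12 shares 731 of its 1515 exon bases with Tnfsfm13, a readthrough gene on the same strand, so its counts are uncertain.

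Tnfrsf21, which encodes death receptor 6, rose 1.35-fold. It was at 105 to 239 CPM (median 158) in negative and 178 to 234 (median 214) in positive sorts. The positive sorts lay close together, inside the range of the negative ones, and mouse 2 was the only one not higher. The log2 fold change was 0.43 (SE 0.13, edgeR adjusted p = 0.0299). Scaling to library size alone ended the call (log2 fold change 0.27, adjusted p = 0.13). So did dropping the block (adjusted p = 0.0914), taking male mice alone (0.0637) and leaving out mouse 1, 3, 4 or 5 (0.0818, 0.0791, 0.0611 and 0.0548).

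Genes of the BAFF and APRIL system, which supports B and plasma cells, gave mixed values. Tnfsf13b, the gene of BAFF, was at 8.88 to 37.2 CPM (median 26.6) in negative and 15.9 to 37.5 (median 23.9) in positive sorts. The log2 fold change of Tnfsf13b was 0.05 (SE 0.16, edgeR adjusted p = 0.834). The sign turned with library size alone (-0.10), without mouse 5 (-0.08) and in 2 other settings. Tnfsf13, the gene of APRIL, was at 0.722 to 1.90 CPM (median 1.10) and 0.561 to 3.34 (median 2.174), with a log2 fold change of 0.71 (SE 0.32, edgeR adjusted p = 0.127) that did not pass.

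The antisense gene Tnfsf13os, which is annotated across Tnfsf13 on the other strand, rose 1.77-fold in 6 of 6 mice. It was at 5.81 to 14.9 CPM (median 10.7) in negative and 11.2 to 26.1 (median 17.2) in positive sorts, and the groups overlapped. The log2 fold change was 0.82 (SE 0.16, edgeR adjusted p = 0.00334), and all 14 other settings kept the call. It shares 221 exon bases with Tnfsf13 and 253 with Tnfsfm13, the readthrough gene of Tnfsf12 and Tnfsf13. On the same strand, Tnfsf13 shares 983 exon bases with Tnfsfm13, and Tnfsf12 shares 731. Counts of these genes are therefore uncertain.

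The receptor Tnfrsf13b (TACI), known from B cells, was at 67.2 to 93.0 CPM (median 74.7) in negative and 56.0 to 101 (median 68.1) in positive sorts. Its log2 fold change was -0.14 (SE 0.09, edgeR adjusted p = 0.282), and it passed as lower with library size alone (adjusted p = 0.0257). Tnfrsf13c, the BAFF receptor of B cells, had 19 to 61 counts per library in negative and 0 to 17 in positive sorts, or 1.13 to 3.98 and 0 to 1.14 CPM. It fell by 2.32 on the log2 scale (SE 0.61, edgeR adjusted p = 0.0168) in 6 of 6 mice, an estimate that rests on few counts. Male mice alone gave an adjusted p of 0.0687, and leaving out mouse 5 gave 0.0541. Tnfrsf17, the plasma cell receptor BCMA, had 3 to 23 counts and was not tested.

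Of 7 B and plasma cell markers 5 were tested. Jchain and Mzb1, both of plasma cells, fell, while the B cell receptor chain Cd79b was at 15.02 to 32.1 CPM and 20.2 to 40.1 CPM and did not pass. Jchain and Mzb1 passed the filter through negative sorts, the group where they were high, with 0 positive libraries above the minimum level. The sum of the 7 markers was 30.5 to 78.6 CPM in negative and 22.1 to 40.9 CPM in positive sorts. Their part in the values of Tnfrsf13c and Tnfrsf13b was not tested.

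Tnfrsf19 encodes TROY, a receptor known from neural and epithelial progenitors. It had 12 to 27 counts per negative and 0 to 11 per positive library. It fell by 2.28 on the log2 scale (SE 0.62, edgeR adjusted p = 0.0187) in 6 of 6 mice, and leaving out mouse 1 or 3 ended the call (adjusted p = 0.06 and 0.0576). Of 7 glioma and oligodendrocyte lineage markers, 4 fell, among them Pdgfra and Olig1, and their sum was 95.0 to 148 CPM and 43.4 to 132 CPM. Their part in the value of Tnfrsf19 was not tested.

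The remaining tested receptors did not pass. Tnfrsf11a (RANK), which drives osteoclast formation and is also found on macrophages, was at 33.8 to 66.4 CPM (median 43.6) in negative and 29.4 to 51.2 (median 44.8) in positive sorts. The log2 fold change of Tnfrsf11a was -0.11 (SE 0.10, edgeR adjusted p = 0.437). RANK ligand, Tnfsf11, had 10 counts over all libraries and none in positive sorts, so its level could not be compared at this depth. The decoy receptor of RANK ligand, Tnfrsf11b, had at most 12 counts in a library.

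Of the TRAIL genes, the ligand Tnfsf10 was at 3.94 to 8.36 CPM (median 5.78) in negative and 2.56 to 7.69 (median 4.73) in positive sorts, with a log2 fold change of -0.25 (SE 0.19, edgeR adjusted p = 0.343). Its death receptor Tnfrsf10b had 9 to 42 counts per library, and its log2 fold change of -0.25 (SE 0.44, edgeR adjusted p = 0.713) did not pass. The 3 neighbouring receptor genes on chromosome 7, Tnfrsf22, Tnfrsf23 and Tnfrsf26, are related copies, the first 2 of which are known as TRAIL decoys in mice. Their log2 fold changes were 0.49 (SE 0.22), 0.12 (SE 0.14) and 0.48 (SE 0.23), with edgeR adjusted p = 0.132, 0.533 and 0.135. Reads may be shared among these copies, so their single values are uncertain.

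The 8 members that did not pass the filter were Tnfsf4, Tnfsf11, Tnfsf15, Tnfsf18, Tnfrsf8, Tnfrsf11b, Tnfrsf17 and Tnfrsf25. None exceeded 25 counts in a library. Fitted without a filter, Tnfsf4 (OX40 ligand) was lower, with 78 counts over the negative and 12 over the positive sorts (log2 fold change -2.59, SE 0.82, edgeR adjusted p = 0.0173). The other 7 did not pass there, with adjusted p = 0.168 to 0.814.

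The sort contrast was also compared between the sexes. With 4 male and 2 female mice, no member passed edgeR's test of a sex difference in the sort contrast, nor did any of the 15014 genes (0% called). Unadjusted p was under 0.05 for 4 members, Tnf, Tnfsf8, Tnfsf9 and Tnfrsf9, and for 1160 of all genes. For Tnf the contrast was 1.10 higher in females on the log2 scale (SE 0.24, unadjusted p = 0.000818, edgeR adjusted p = 0.562). Tnf was at 172 to 369 CPM in negative and 116 to 271 CPM in positive sorts of male mice, and at 145 to 167 and 201 to 271 CPM in those of female mice. In male mice alone Tnf was lower (log2 fold change -0.53, edgeR adjusted p = 0.0164). DESeq2 called the sex difference of Tnf (adjusted p = 0.00855) among 32 genes in all. The fit without a filter called Tnf and Tnfrsf9 (adjusted p = 0.000109 and 0.00309) among 119 genes, and limma-voom called 0 genes. The other contrasts differed between females and males by 0.86 for Tnfsf9, -1.38 for Tnfsf8 and -1.90 for Tnfrsf9 on the log2 scale, each with edgeR adjusted p = 0.562. With 2 female mice, sex and the individual mouse cannot be told apart.

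**Figure D4:**
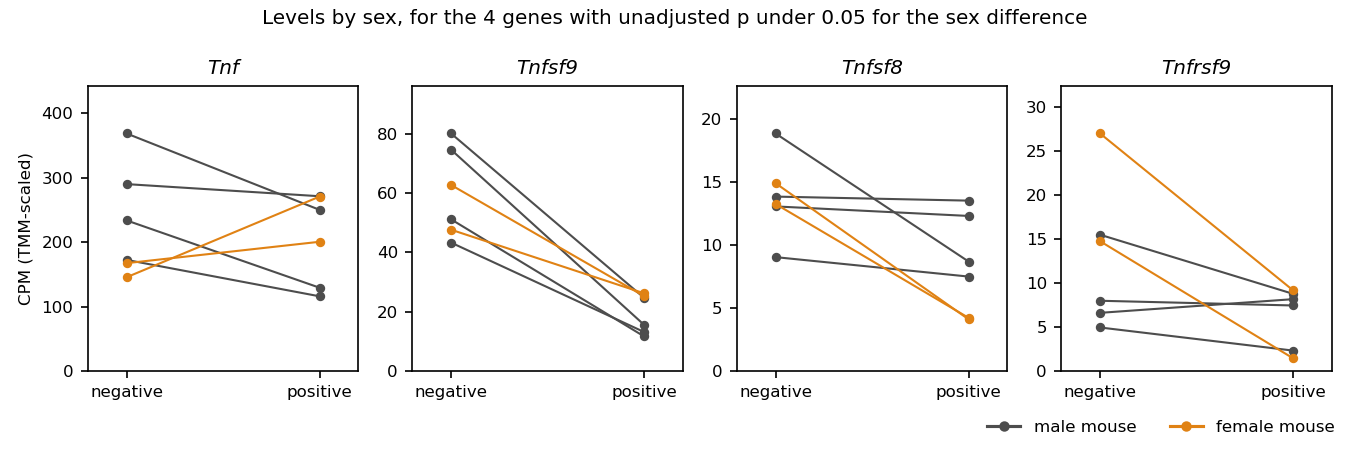
CPM of Tnf, Tnfsf9, Tnfsf8 and Tnfrsf9 in each library, with a line for each mouse, male mice in grey and female mice in orange; axes start at 0. For Tnf the 4 grey lines fall and the 2 orange lines rise.

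Superfamily genes that carry other symbols were read as a list of 14, of which 6 were tested, 3 fell and 1 rose, against 13.2% and 13.0% of all genes. Cd40, the receptor through which T cells license antigen-presenting cells, was at 33.2 to 72.2 CPM (median 48.9) in negative and 14.8 to 35.2 (median 22.4) in positive sorts and fell 2.27-fold (log2 fold change -1.18, SE 0.13, edgeR adjusted p = 0.000102). Ltb, the gene of lymphotoxin beta, was at 6.32 to 17.5 CPM (median 7.94) and 1.67 to 3.83 (median 2.56), fell 3.34-fold and did not overlap between the groups (edgeR adjusted p = 0.000648). The orphan receptor gene Relt fell 1.67-fold (edgeR adjusted p = 0.000857). In contrast, Ltbr, the lymphotoxin beta receptor, rose 1.30-fold, from 58.7 to 69.4 CPM to 74.8 to 95.0 CPM, with no overlap (log2 fold change 0.37, SE 0.09, edgeR adjusted p = 0.00841). Scaling to library size alone took Ltbr above the threshold (adjusted p = 0.0768), which left 3 lower and 0 higher. Fas and Cd27 did not pass, with log2 fold changes of -0.06 (SE 0.23) and -0.25 (SE 0.36).

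Downstream of the receptors, 18 of 44 signalling genes fell and 1 rose, against 13.2% and 13.0% of all genes, with a median log2 fold change of -0.28 against -0.02. Those that fell included the NF-kB subunit genes Rel, Relb, Nfkb1 and Nfkb2, the inhibitor genes Nfkbia and Nfkbie, and the kinase genes Ikbkb and Chuk. The subunit gene Rela (log2 fold change -0.10, SE 0.09), the inhibitor gene Nfkbib (-0.14, SE 0.09) and Ikbkg (0.08, SE 0.10) did not pass. Tnip3, which binds the inhibitor A20, fell 6.53-fold (log2 fold change -2.71, SE 0.16, edgeR adjusted p = 1.29e-06), from 15.7 to 54.7 CPM to 3.01 to 6.86 CPM. Traf1, an adaptor used by receptors such as 4-1BB and CD40, fell 3.61-fold (log2 fold change -1.85, SE 0.16, edgeR adjusted p = 1.56e-05), from 59.3 to 170 CPM to 16.6 to 37.1 CPM. Neither gene overlapped between the groups. Nfkbie, an inhibitor of NF-kB, fell by 1.23 on the log2 scale, the subunit gene Rel by 0.99 and the ubiquitin ligase gene Birc2 by 0.91 (edgeR adjusted p = 0.000267, 0.000285 and 0.000311).

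Several genes that act near the TNF receptors did not pass. Tradd had a log2 fold change of 0.26 (SE 0.10), Ripk1 of 0.09 (SE 0.13) and Traf2 of -0.16 (SE 0.11). Fadd had one of 0.34 (SE 0.16) and the caspase gene Casp8 of 0.00 (SE 0.07). Tradd was still higher in 6 of 6 mice, at 26.8 to 33.2 CPM in negative and 33.4 to 38.6 in positive sorts. Traf5, Birc3 and Cflar fell, with log2 fold changes of -0.45, -0.65 and -0.27 (edgeR adjusted p = 0.0174, 0.00105 and 0.0386). The 1 gene that rose was Azi2, an adaptor of the kinase TBK1, at 0.28 (SE 0.08, edgeR adjusted p = 0.029). Azi2 lost its call on leaving out mouse 1, 3, 4, 5 or 6 (adjusted p = 0.0569, 0.0993, 0.0533, 0.0513 and 0.0601), in male mice alone, without a filter or with library size alone, and with library size alone 30 of the 44 genes were lower. Of 12 genes that respond to tissue dissociation, 10 immediate early or early stress genes and the heat shock genes Hspa1a and Hspa1b, 10 fell, both heat shock genes among them, with a sum of 11956 to 17257 CPM in negative and 7362 to 10962 CPM in positive sorts. Their part in the lower signalling genes was not tested.

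**Figure D5:**
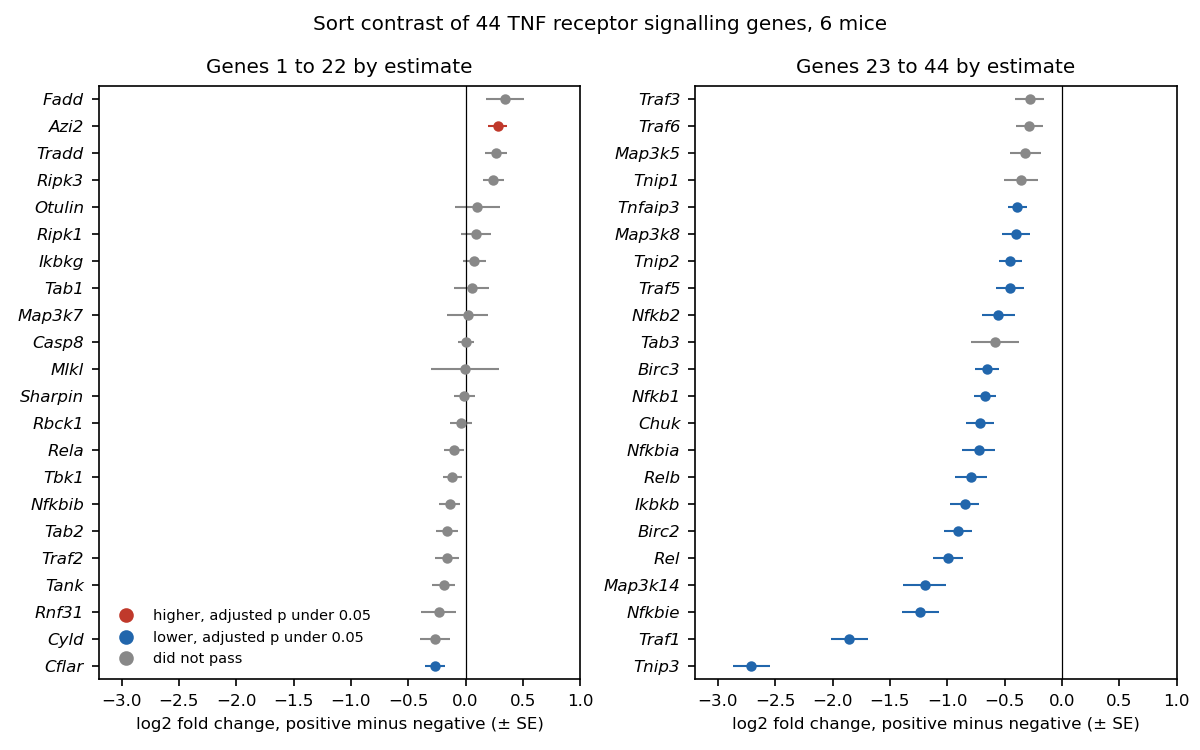
Log2 fold change, positive minus negative, with its SE, of 44 TNF receptor signalling genes in order of the estimate; colours as for the members. Blue points reach -2.71 for Tnip3 and -1.85 for Traf1, and 1 point, Azi2, is red.

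Of 14 genes that cut TNF from the membrane or act on its mRNA, 4 fell and 2 rose, against 13.2% and 13.0% of all genes. Adam17, the sheddase of TNF, was at 154 to 214 CPM (median 172) in negative and 191 to 248 (median 211) in positive sorts and rose 1.21-fold (edgeR adjusted p = 0.0278). Adam10, a related sheddase, rose 1.25-fold (edgeR adjusted p = 0.0192). Both were lost without the block (adjusted p = 0.0925 for Adam17 and 0.07 for Adam10) and with library size alone, where 5 of the list were lower and 0 higher. Leaving out mouse 2, 3, 4 or 5, or the female mice, left 2 lower. Without mouse 3, Adam17 and Adam10 did not pass either (0.083 and 0.0547), nor did Adam17 without mouse 1 (0.0584) or Adam10 without mouse 2 (0.0587). Of the genes that destabilize such mRNAs, Zfp36 (tristetraprolin) went from 1414 to 1866 CPM to 877 to 1242 CPM and fell 1.44-fold (log2 fold change -0.53, SE 0.09, edgeR adjusted p = 0.00144), and Zfp36l2 fell 2.04-fold (edgeR adjusted p = 0.00551). Rc3h2, a gene of the roquin family, and Tia1, an RNA-binding protein gene, fell 1.41-fold and 1.30-fold (edgeR adjusted p = 0.0288 and 0.0411). Rc3h2 was lost without mouse 2, 3, 4 or 5 (adjusted p = 0.0523, 0.0754, 0.0797 and 0.0834) and Tia1 without any 1 of the 6 mice (0.0518 to 0.11).

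Markers of further cell types in the same libraries were as follows. Of the monocyte markers, Plac8 and Ccr2 fell, Plac8 from 105 to 248.7 CPM in negative to 7.24 to 41.4 CPM in positive sorts, and Ccr2 from 89.9 to 331 CPM to 9.82 to 37.3 CPM. Ly6c2 (log2 fold change -1.25, SE 0.46), Vcan (-0.56, SE 0.40) and Chil3 (0.70, SE 0.34, higher in 4 of 6 mice) did not pass. All 3 tested basophil and mast cell markers of 6 fell, with sums of 5.98 to 413 and 0.187 to 21.2 CPM. Of these, Mcpt8 and Gata2 passed the filter mainly through negative sorts, with 5 negative and 1 positive library each above the minimum level. Of 6 neutrophil markers, only Cxcr2 was tested, and it fell. The sums of the 6 were 4.21 to 26.5 and 0.686 to 4.84 CPM, and Cxcr2 alone was at 1.22 to 20.2 and 0.20 to 2.77 CPM. Cxcr2 had 3 positive libraries above the minimum level. Ly6g had 1 count over all 12 libraries, in a negative sort. None of the 5 tested endothelial markers of 6 passed, with sums of 19.4 to 49.4 and 26.1 to 105 CPM. Their part in the values of the members was not tested.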

How the data were processed

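Polyadenylated RNA of 12 libraries was analysed, 2 from each of 6 mice. The authors deposited raw read counts per gene, as a table and as 1 file per library with the same values, and a table of log2 normalized values, which held 22 of the 33 members and was not tested. The submitters' processing notes name build mm10, HISAT2 2.1.0 as well as cutadapt and bcl2fastq 2.17, and, after these, edgeR, limma and featureCounts 1.4.4. The role of each tool and the strand setting are not given in the sources used here.

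Counts were filtered with edgeR's filterByExpr by group (minimum count 10, minimum total 15), which left 15014 of 54532 genes with 99.8% of the counts, and scaled by TMM. In R 4.3.3, edgeR 4.0.16 fitted sort and mouse (as a block), each gene was tested by quasi-likelihood, and p-values were adjusted by Benjamini-Hochberg over all genes tested, at a threshold of 0.05. The SE was taken as the size of the log2 fold change over the root of F. Paired log2 differences used a prior count of 2. The procedure was tested on simulated data. Exon lengths, overlaps and gene coordinates came from GENCODE vM21 (mm10), and upstream sequences from RefSeq (GRCm38.p6).

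The series text states that the 2 sorts of a mouse are paired. Across genes, which are not independent replicates, same-mouse sorts deviated together, with r = 0.226, 0.207, 0.289, 0.0775, 0.302 and 0.450 in mice 1 to 6; that of mouse 4 was below its highest value with another mouse (0.187). Between libraries of a group, chi-square per degree of freedom was 17.5 or more, so none was a copy.

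The members and gene lists were chosen with earlier results of these data known, so no list was tested as a set. Every member that passed the filter is named, and of each pathway list the 5 genes with the smallest p in each direction among those past the threshold; further list genes were named after their values were seen. Other settings were DESeq2 1.42.0, limma 3.58.1 with voom weights, no block, 2 other scalings, no filter, a stricter filter (1 CPM in 6 libraries), male mice alone, each mouse left out, and a prior count of 0.5. Results for the full microglia and monocyte marker lists are not reported here.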

Additional observations from a re-analysis of the deposited data

Results flagged for a closer look

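Tnf is listed because its paired difference was negative in all 4 male mice and positive in both female mice. The contrast differed by 1.10 on the log2 scale, female minus male, with unadjusted p = 0.000818 and an edgeR adjusted p of 0.562. Without mouse 5 the difference was 0.78 and without mouse 6 it was 1.42.

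A library stood apart from the rest of its group in 2 cases among the 25 tested members, with 2 groups of 6 examined for each. Chance alone sets about 1 in 20 groups apart by this measure. Tnfrsf18 was at 37.7 CPM in the rhodamine-negative library of mouse 5, and the next highest was at 19.5 CPM. Without mouse 5 its log2 fold change still passed, as under the other settings tried. Tnfrsf26 was at 14.9 CPM in the rhodamine-positive library of mouse 1, next to 8.11 CPM.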

How the results depend on the processing

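Dropping mouse as the replicate block, which ignores the pairing, left 1 member higher and 5 lower against 2 and 8. It left 0 higher genes of the TNF processing and mRNA decay list and turned Tnfsf13b to -0.00036; its other lost calls stand beside the genes. Scaling to library size alone gave 1 member higher, 0 higher in each of the 3 gene lists and 30 lower signalling genes, and it turned Tnfrsf1b to -0.12, Tnfrsf1a to -0.14, Tnfrsf23 to -0.035 and Tnfsf13b to -0.10. Male mice alone gave 1 member higher and 5 lower, with Tnf among the lower, and 0 signalling genes higher. Of the processing and decay list 1 was higher and 2 were lower there, and Tnfrsf1b turned to -0.024 and Tnfsf13b to -0.12. No filter gave 0 signalling genes higher and 1 of the processing and decay list. The count of members with a sex difference was 0 with edgeR, 1 with DESeq2 (32 of all genes) and 2 with no filter (119 of all genes). Leaving out each mouse gave 1 to 2 members higher and 5 to 8 lower, 0 to 1 signalling genes higher, and 0 to 2 higher and 2 to 3 lower of the processing and decay list. Log2 fold changes then ranged from -0.052 to 0.064 for Tnfrsf1a, -0.079 to 0.21 for Tnfsf13b and -0.59 to 0.050 for Tnfrsf10b. The cause of these changes was not tested. Members with under 30 counts in most libraries, such as Tnfrsf19, are limited by depth.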
